A study of Mus musculus with 9 samples.

Results

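CCL26 was compared with bovine serum albumin (BSA) in cultured mouse macrophages, in 6 of the 9 RNA-seq libraries of the series: 3 of cells given CCL26 and 3 of cells given BSA, chosen by their treatment label alone. The cells were bone marrow-derived macrophages of wild type C57BL/6 mice aged 6 weeks, grown for 7 days in medium with 15% supernatant of L929 cells, a fibroblast line that secretes the macrophage growth factor CSF1. CCL26, BSA or CX3CL1 was then added at 4 nM, and RNA was taken 4 h later. BSA, an inert carrier protein, was the control, and the other 3 libraries came from cells given CX3CL1. The sources used here do not say how many mice or cultures stand behind the 3 libraries of a group, so the p-values below reflect only how much these libraries vary, and that variation may be technical. They do not give the species of the CCL26 protein either.

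CCL26 (eotaxin-3) is a chemokine that recruits eosinophils through the receptor CCR3, and the series title names it, together with CX3CL1 (fractalkine), as a ligand of CX3CR1. Chemokine receptors signal through G proteins that lower cyclic AMP, through MAP kinases and toward changes in the cytoskeleton. Macrophages answer danger signals with a transcription programme led by NF-kB, whose targets include cytokines, chemokines and its own inhibitors, and with interferon regulatory factors and STAT proteins, which drive antiviral genes.

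Each library held from 17599313 to 21699679 counts, in ranges that overlapped between the groups. Expression is given below in CPM (counts scaled to library size), and values in a group of 3 are listed in the order of replicates 1, 2 and 3. All 16 macrophage markers examined were in the table. Adgre1, which encodes F4/80, stood at 3107 ± 24.2 CPM (SD, n = 3) with BSA, and Csf1r, the CSF1 receptor, at 1285 ± 10.1 CPM. Markers of other marrow cells summed to far less than the macrophage markers, which reached 32600 to 33170 CPM with BSA. The summed level of 13 neutrophil precursor genes was 184 to 194 CPM with BSA and 209 to 223 CPM with CCL26, and that of 8 monocyte genes 27.4 to 32.9 against 35.4 to 38.7 CPM. With BSA, dendritic markers summed to 384 to 409 CPM, osteoclast markers to 116 to 126 CPM and B cell markers to 100 to 110 CPM. Erythroid and megakaryocyte markers summed to 83.0 to 85.6 CPM. The neutrophil granule genes Elane and Mpo stood at 0.586 ± 0.188 and 0.565 ± 0.334 CPM with BSA (SD, n = 3). They do not stand for the whole list, in which 3 of the 13 genes were under 1 CPM in both groups. In the neutrophil precursor and monocyte lists the CCL26 libraries were the higher ones, and the part of other cells in the results was not tested. In bulk RNA, fewer cells of a type and less RNA per cell cannot be told apart.

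With CCL26, 1228 genes were higher and 1135 lower than with BSA among 13593 tested (quasi-likelihood test of edgeR, p adjusted by Benjamini-Hochberg and under 0.05), which is 9.03% and 8.35% of the genes. The counts in gene lists below are to be read against these shares. The increases were larger than the decreases. Of the higher genes, 123 rose more than 2-fold, 220 rose 1.5-fold to 2-fold, 630 rose 1.2-fold to 1.5-fold and 255 rose less. Of the 123, 43 had under 5 CPM with CCL26. Of the lower genes, 56 fell more than 2-fold, and 46 of these had under 5 CPM with BSA. A further 65 fell 1.5-fold to 2-fold, 426 fell 1.2-fold to 1.5-fold and 588 fell by less than 1.2-fold. The median log2 fold change was 0.41 among the higher and -0.25 among the lower genes. The balance of the directions depended on the scaling: with upper quartile scaling, which shifted the median gene from 0.01 to -0.02 on the log2 scale, 1010 genes were higher and 1477 lower, or 40.6% higher against 52% as given above. Among all genes tested, 2218 (16.3%) had all 3 CCL26 libraries above all 3 BSA libraries, and 2134 (15.7%) had all 3 below. When all 9 libraries entered 1 fit, only 50 genes were called higher and 6 lower. CX3CL1 replicate 1, which stands apart from the other libraries, widened the spread there, and with it alone left out the counts were 1280 and 1210.

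**Figure D1:**
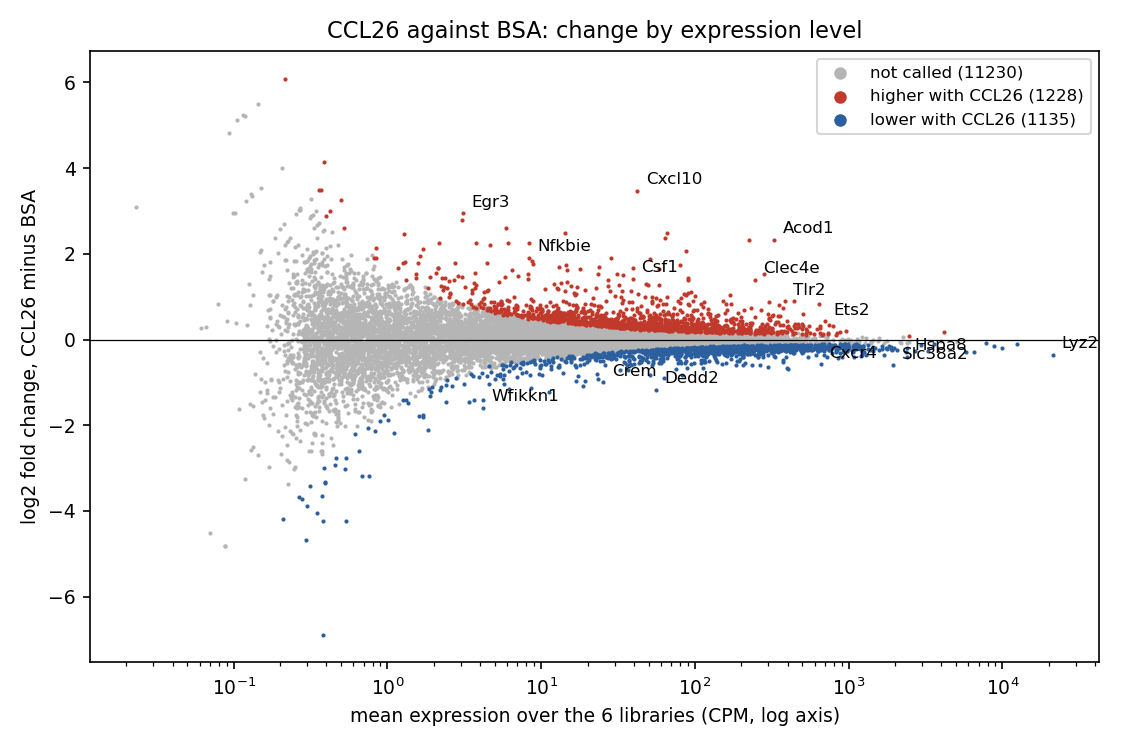
Log2 fold change of CCL26 over BSA for each of 13593 genes (vertical axis) against its mean CPM over the 6 libraries (horizontal, log axis). Red points are the 1228 genes that were higher and blue points the 1135 that were lower at an adjusted p under 0.05; the highest red points reach well beyond the blue ones among genes above 10 CPM, and the blue points crowd close under 0 at the right, among the most abundant genes.

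Interferon-stimulated genes, which encode antiviral and antimicrobial proteins, held many of the largest increases: 83 of 125 listed members in the table rose, 5 fell, and the median log2 fold change was 0.71, against 0.01 over all genes. They made up 42 of the 123 genes that rose more than 2-fold. Cxcl10, a chemokine that attracts T cells and a member of this list, was at 5.96, 6.96 and 7.96 CPM in the BSA libraries and 75.6, 81.6 and 74.9 CPM in the CCL26 libraries, an 11.1-fold increase (log2 fold change 3.48, SE 0.106, adjusted p = 9.70e-18). Rsad2, which encodes the antiviral enzyme viperin, went from 74.5 ± 1.09 to 374 ± 9.51 CPM (SD, n = 3; log2 fold change 2.33, SE 0.0490, adjusted p = 5.41e-21). The 5 members that fell were Ifitm2, Ifi30, Aim2, Ly6e and Tor1aip2. Members of the Gbp, Ifit and Ifi200 families have near-identical copies whose reads cannot be assigned with certainty. The other 81 genes that rose more than 2-fold lay outside this list. A gene outside the list may still respond to interferon, which was not tested. The sections that follow give named genes of any size of change outside the list, except Cxcl10 and some MHC class I genes. Genes named by rule for the size or the p of their change had to have groups without overlap, and are separated for that reason. List members and receptors named by rule did not have to meet this.

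Most of the listed NF-kB genes rose. Of 36 listed genes for NF-kB subunits, their inhibitors and signalling proteins, all in the table, 25 rose and none fell, with 11 not called and a median log2 fold change of 0.45. By edgeR, 1 member was lower at an unadjusted p under 0.05, and by DESeq2 and limma-voom none was lower. Nfkbia, which encodes the inhibitor IkB-alpha and is itself an NF-kB target, was at 115, 123 and 131 CPM with BSA and 218, 225 and 216 CPM with CCL26, so that the groups stood well apart (log2 fold change 0.84, SE 0.0538, adjusted p = 2.00e-11). Nfkbie (ENSMUSG00000023947, GRCm38 chr17:45555703-45563169), which encodes another inhibitor, rose 3.76-fold from a low level, 2.14, 3.95 and 4.44 to 12.9, 13.1 and 13.6 CPM (log2 fold change 1.91, SE 0.204, adjusted p = 1.72e-07). Nfkb1, a subunit gene, moved from 239 ± 8.04 to 361 ± 5.50 CPM (SD, n = 3), a rise of 51.3% (log2 fold change 0.60, SE 0.0435, adjusted p = 2.46e-10). The subunit genes Relb and Nfkb2 were chosen after their values were seen; they rose by 95.0% and 76.9% (log2 fold changes 0.96 and 0.82). Proteins that act downstream of TNF receptors followed: Traf1, an adaptor, rose 3.33-fold, and Birc3, an inhibitor of apoptosis, rose 2.12-fold (adjusted p = 3.36e-09 and 8.68e-12). Cflar, which blocks caspase-8, went from 279 ± 4.10 to 464 ± 7.39 CPM (log2 fold change 0.73, adjusted p = 1.14e-12). Tnfaip3, which encodes the deubiquitinase A20 that shuts NF-kB signalling off, rose by 50.6% from 102, 99.0 and 100.2 to 158, 146 and 150.4 CPM (log2 fold change 0.59, SE 0.0556, adjusted p = 2.01e-08).

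Promoters of some of these genes hold a kappaB core, here GGG, any 2 bases and TTTCC, a sequence that NF-kB dimers bind. The stretches below are printed because their genes rose with CCL26 and carry that core before the annotated start. They are RefSeq sequence of GRCm38.p6, written 5′ to 3′ on the strand of the gene and ending at the last base before the start, with the core in capitals on whichever strand it was found. Cxcl1 (chr5:90891125-90891244, plus strand) and Cxcl2 (chr5:90903779-90903898, plus) hold 2 matches each, and Il6 (chr5:30012994-30013113, plus), Nfkbia (chr12:55492648-55492767, minus) and Csf1 (chr3:107760470-107760649, minus) hold 1 each.
Cxcl1: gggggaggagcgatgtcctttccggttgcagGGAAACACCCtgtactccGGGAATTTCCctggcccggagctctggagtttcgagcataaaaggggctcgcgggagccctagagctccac
Cxcl2: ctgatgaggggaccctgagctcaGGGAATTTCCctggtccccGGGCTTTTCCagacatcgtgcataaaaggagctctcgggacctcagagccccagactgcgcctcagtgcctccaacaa
Il6: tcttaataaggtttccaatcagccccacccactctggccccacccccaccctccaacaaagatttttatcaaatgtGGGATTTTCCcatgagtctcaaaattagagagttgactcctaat
Nfkbia: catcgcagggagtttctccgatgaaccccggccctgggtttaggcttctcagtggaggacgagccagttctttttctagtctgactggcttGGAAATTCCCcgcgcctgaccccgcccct
Csf1: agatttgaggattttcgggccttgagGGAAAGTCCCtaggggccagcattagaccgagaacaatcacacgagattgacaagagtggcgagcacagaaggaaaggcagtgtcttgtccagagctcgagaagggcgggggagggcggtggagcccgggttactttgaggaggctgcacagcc

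RefSeq promoters of 300 bases, 250 before and 50 after the start, could be matched to 9969 of the 13593 genes, as 12665 promoters. The kappaB core, searched on both strands, was in 42 of 1195 promoters (3.51%) of genes that rose outside the interferon list, in 16 of 1142 promoters (1.4%) of genes that fell, in 2 of 79 (2.53%) of interferon-list genes that rose, and in 1.77% of all promoters. For comparison, the core of the interferon-stimulated response element, GAAA, any 2 bases and GAAA, was in 38 of 79 promoters (48.1%) of interferon-list genes that rose, in 3.77% of promoters of the other genes that rose, in 3.06% of those that fell, and in 3.24% of all. Interferon-list genes that did not rise were not counted apart, so the 48.1% cannot be tied to the rise with CCL26. The Cxcl10 match is shown here because it heads the gene with the largest increase in that list (chr5:92348890-92349119, minus strand).
Cxcl10: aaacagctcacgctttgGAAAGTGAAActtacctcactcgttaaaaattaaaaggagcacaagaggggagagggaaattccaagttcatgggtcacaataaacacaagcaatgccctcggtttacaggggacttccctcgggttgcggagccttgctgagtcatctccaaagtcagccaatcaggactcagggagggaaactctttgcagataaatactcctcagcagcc

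A further 3 motifs were searched, with shares that also differed between the classes in part. TGACGTCA, the full cyclic AMP response element, was in 3.1% of promoters of higher genes outside the interferon list, 2.63% of those of lower genes and 2.96% of all, and in none of the 79 of interferon-list genes that rose. CACGTG, the E-box, was in 9.62%, 13.3% and 9.94%, and in 2.53% of the interferon-list promoters. TTCNNNGAA, the core of a STAT site, was in 7.87%, 6.13% and 6.86%, and in 13.9% of the interferon-list promoters. TGACGTCA and CACGTG read the same on both strands, as do the fixed letters of TTCNNNGAA, and matches of different motifs may overlap. These shares describe the letters in the windows and carry no test.

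Chemokine ligand genes rose more often than they fell. Of 21 listed ligand genes in the table, 8 rose (Cxcl10, Ccl5, Cxcl1, Cxcl2, Ccl4, Ccl7, Cxcl16 and Ccl3) and 3 fell (Ccl12, Ccl6 and Pf4), with a median of 0.49. Cxcl2, which attracts neutrophils, was at 57.9, 58.6 and 54.2 CPM with BSA and 116, 109 and 129 CPM with CCL26 (log2 fold change 1.05, SE 0.0703, adjusted p = 4.56e-11). Cxcl1, its neighbour on the chromosome and another neutrophil attractant, rose from 1.99, 2.39 and 2.25 to 5.83, 3.77 and 6.46 CPM (log2 fold change 1.27, SE 0.262, adjusted p = 0.00101). Both groups of libraries were separate for either gene, although the 3 CCL26 values of Cxcl1 spread widely. Ccl4, an attractant of monocytes and T cells, rose from 80.8 ± 9.09 to 147 ± 10.7 CPM and the monocyte attractant Ccl7 from 57.3 ± 0.793 to 87.0 ± 7.06 CPM (SD, n = 3; log2 fold changes 0.87 and 0.60). Ccl5 rose from a level near the limit of the table, 1.52, 0.416 and 0.346 CPM, to 4.52, 4.65 and 6.80 CPM (log2 fold change 2.78, SE 0.389, adjusted p = 1.03e-05). Against this trend Ccl12, another monocyte attractant of the same gene cluster as Ccl7, fell from 23.7, 22.5 and 21.2 to 10.4, 12.8 and 11.2 CPM (log2 fold change -0.97, SE 0.126, adjusted p = 3.60e-06).

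Cytokine genes were divided, with 6 of 32 higher (18.75%) and 4 lower (12.5%), against 9.03% and 8.35% of all genes tested. The number lower was 2 without BSA replicate 3 or CCL26 replicate 1 or 2. Csf1 (ENSMUSG00000014599, chr3:107741048-107760469), which encodes the factor that keeps macrophages alive and that the culture medium also supplied, rose 2.67-fold, from 17.1, 22.1 and 25.1 to 55.8, 59.0 and 57.1 CPM (log2 fold change 1.42, SE 0.106, adjusted p = 3.65e-10). Tnf, the central inflammatory cytokine of macrophages, rose from 39.7, 39.5 and 42.2 to 73.0, 83.6 and 75.3 CPM (log2 fold change 0.93, SE 0.0765, adjusted p = 1.76e-09). For both genes the lowest CCL26 library lay above the highest BSA library by a wide margin. Tnfsf15, which encodes the TNF-family ligand TL1A, rose 3.26-fold to 19.9 ± 1.06 CPM (SD, n = 3; log2 fold change 1.70, SE 0.145, adjusted p = 3.33e-09). Il6, a cytokine of the acute phase response, reached 6.601, 6.41 and 3.68 CPM from 1.52, 2.13 and 2.02 CPM (log2 fold change 1.56, SE 0.275, adjusted p = 1.96e-04). Pdgfb, a growth factor, and Il1rn, the interleukin-1 antagonist, also rose, while Hbegf, Pdgfa, Metrnl and Spp1 fell.

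Receptors for microbial products rose in part. Of 43 listed pattern receptor and adaptor genes, 16 rose and 6 fell (median 0.12), with 3 lower without BSA replicate 2 and 4 without BSA replicate 1. Clec4e (ENSMUSG00000030142, chr6:123281789-123289870), which encodes Mincle, a lectin for mycobacterial glycolipid, was at 134, 132 and 137 CPM with BSA and 352, 372 and 338 CPM with CCL26, a 2.64-fold rise (log2 fold change 1.40, SE 0.0484, adjusted p = 1.21e-16). Tlr2 (ENSMUSG00000027995, chr3:83836272-83841767), a receptor for bacterial lipoproteins, rose from 270.4, 273 and 269 to 514, 512 and 478 CPM (log2 fold change 0.89, SE 0.0420, adjusted p = 6.11e-14). These 2 genes had spreads within each group that were small beside the step between the groups. Nod2, a cytosolic sensor of bacterial wall peptides, rose 2.75-fold from 3.09 ± 0.336 CPM (SD, n = 3; log2 fold change 1.46, adjusted p = 7.14e-06). Nlrp3, which nucleates an inflammasome, rose by 62.0% (log2 fold change 0.70, adjusted p = 8.91e-09). Ticam2, an adaptor of Toll-like receptor 4, went from 41.7 ± 2.07 to 72.4 ± 3.57 CPM (SD, n = 3; log2 fold change 0.80, adjusted p = 2.27e-08). The 6 lower members were Nlrc4, Mrc1, Clec4n, Clec4a2, Tlr13 and Cd14.

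Some surface molecules were among the larger increases. Of 41 listed activation and cytokine receptor genes, 15 (36.6%) rose and 6 (14.6%) fell (median 0.17), against 9.03% and 8.35% of all genes tested. Cd69, an early activation marker, rose from 8.89, 9.10 and 7.79 to 27.5, 26.5 and 26.9 CPM (log2 fold change 1.65, SE 0.123, adjusted p = 3.70e-10). Cd83, which marks mature antigen-presenting cells, went from 31.3, 31.6 and 24.1 to 66.1, 71.5 and 72.0 CPM (log2 fold change 1.27, SE 0.0928, adjusted p = 2.73e-10). Icosl, a costimulatory ligand outside that list, rose 2.89-fold to 46.1 ± 0.543 CPM (SD, n = 3; log2 fold change 1.53, SE 0.101, adjusted p = 3.50e-11). The checkpoint ligand Cd274 (PD-L1) differed by 78.0%, with 115, 114 and 116 CPM in the BSA libraries and 206, 205 and 203 CPM in the CCL26 libraries, a step that far exceeded the spread of either group. Icam1, an adhesion molecule for leukocyte integrins, rose by 60.1% (log2 fold change 0.68, adjusted p = 1.01e-09). Clec2d, the ligand of a natural killer cell receptor, rose 2.68-fold from 4.43 ± 1.004 CPM (SD, n = 3). Trem1, an amplifier of inflammatory signalling, fell from 5.07, 5.15 and 5.19 to 2.44, 3.13 and 2.79 CPM (log2 fold change -0.88, SE 0.234, adjusted p = 0.00922). Il10ra, an interleukin-10 receptor gene chosen after its values were seen, fell by 20.9% (log2 fold change -0.34, adjusted p = 3.27e-05).

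Among enzymes, Acod1 (ENSMUSG00000022126, chr14:103046977-103056573) had the largest fold change among the genes named outside the interferon list that exceeded 100 CPM with CCL26. It encodes the mitochondrial enzyme that makes itaconate. Its level was 115, 115 and 95.0 CPM in the BSA libraries and 553, 562 and 523 CPM in the CCL26 libraries, 5.04-fold higher (log2 fold change 2.33, SE 0.0579, adjusted p = 1.28e-19). Nos2, inducible nitric oxide synthase, rose 3.09-fold but stayed low, 3.92, 3.01 and 2.54 against 9.27, 9.39 and 10.8 CPM (log2 fold change 1.63, SE 0.202, adjusted p = 1.69e-06). In the same list, 2 enzymes of polyamine synthesis fell. Odc1, ornithine decarboxylase, fell from 133, 133 and 131 to 95.4, 93.8 and 96.1 CPM and Amd1, which supplies the aminopropyl groups, from 102 ± 3.06 to 70.5 ± 3.53 CPM (SD, n = 3; log2 fold changes -0.48 and -0.54, adjusted p = 6.91e-07 and 9.77e-07). In the whole list of itaconate, nitric oxide, arginine, polyamine and eicosanoid genes, 8 of 32 rose and 6 fell, and 5 rose without BSA replicate 3 or CCL26 replicate 2.

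**Figure D2:**
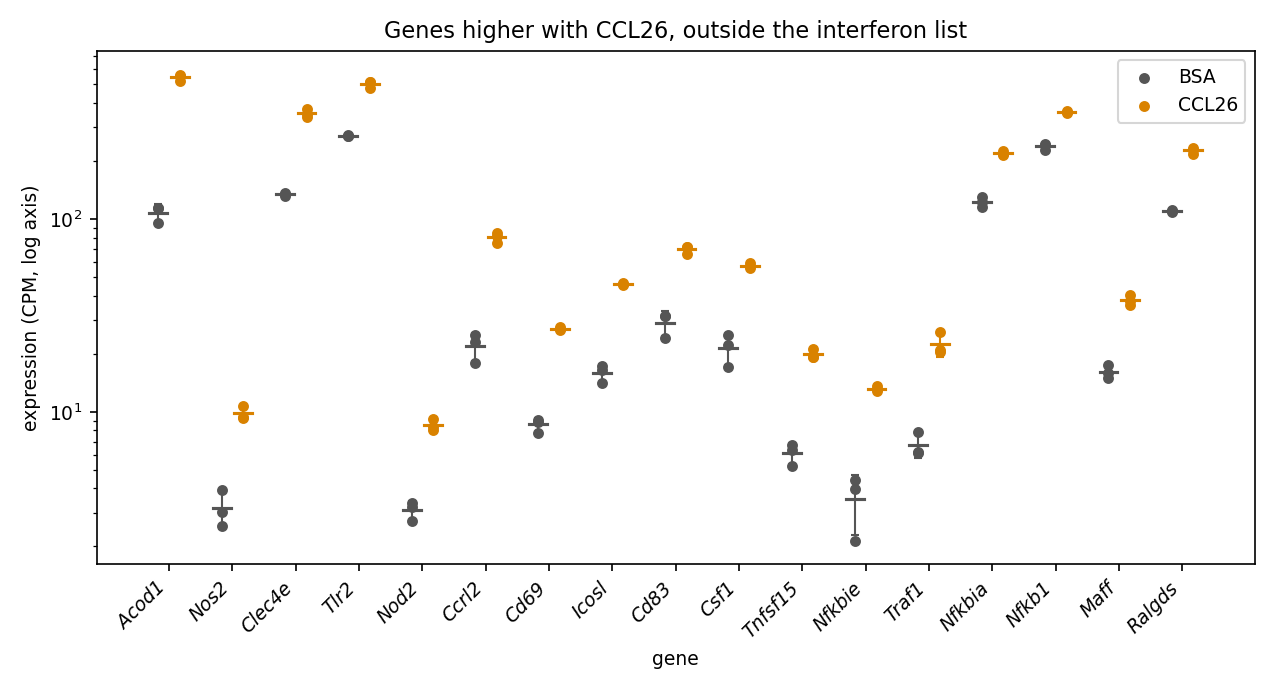
Expression in CPM (log axis) of 17 genes that were higher with CCL26 and lie outside the interferon list. Points are single libraries, 3 for BSA (grey) and 3 for CCL26 (orange), with the mean and the SD as bars; the genes were chosen to have groups without overlap, and the step is largest for Acod1.

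Increases were also called among more abundant genes. Most of those named here stayed under 2-fold and were chosen for groups without overlap and a small p. Ets2, a MAP kinase-regulated transcription factor, was at 589, 605 and 593 CPM with BSA and 816, 789.5 and 800.2 CPM with CCL26, only 34.6% higher (log2 fold change 0.43, SE 0.0349, adjusted p = 1.56e-09). Marcks, a membrane protein that binds actin and phosphoinositides, rose by 45.4% and Abca1, the cholesterol exporter, by 45.3% (log2 fold changes 0.54 and 0.54). Pik3r5, a subunit of the phosphoinositide kinase that G protein-coupled receptors activate, went from 287, 291 and 287 to 420.3, 416 and 431 CPM (log2 fold change 0.55, SE 0.0405, adjusted p = 2.88e-10). Several further signalling genes moved by similar amounts. Plxnd1, a semaphorin receptor, rose by 42.1%, Trafd1, a brake on Toll-like receptor signalling, by 48.8%, and Rapgef5, an exchange factor of the GTPase Rap, by 39.5%. Ralgds, an exchange factor of the GTPase Ral, rose 2.07-fold, from 109, 111 and 110.5 to 219, 235 and 229 CPM (log2 fold change 1.05, SE 0.0514, adjusted p = 1.17e-13). Rassf4 rose by 76.5% from 466 ± 1.94 CPM, and Sema4d, a semaphorin of leukocytes, by 84.2% from 212 ± 5.71 CPM (SD, n = 3; adjusted p = 6.63e-14 and 2.90e-13). Rnf213, a large ubiquitin ligase, rose by 87.1% (log2 fold change 0.90, adjusted p = 2.89e-14). Of 23 SOCS, Janus kinase, STAT and phosphatase genes, 7 rose and 1, Stat3, fell, but 1 rose without BSA replicate 1 or 3, 2 without CCL26 replicate 2 and 4 without BSA replicate 2; the changes were small, with 47.7% for Socs4 and 14.5% for Stat6, and the Stat6 call was lost without BSA replicate 1 or 3 or CCL26 replicate 2.

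Genes of candidate receptors for the ligand were expressed at low levels and did not pass the test. Cx3cr1 was at 5.07, 7.54 and 6.52 CPM with BSA and 6.06, 6.21 and 7.80 CPM with CCL26 (log2 fold change 0.07, SE 0.197, adjusted p = 0.877). Ccr3 was at 4.03, 1.35 and 1.90 against 1.18, 2.59 and 2.62 CPM (log2 fold change -0.20, SE 0.395, adjusted p = 0.806), and its direction turned without BSA replicate 1 (log2 fold change 0.38) or CCL26 replicate 1 (0.095). Ccr1 averaged 5.50 ± 0.216 and 5.65 ± 0.958 CPM, and Ccr2 2.33 ± 0.364 and 1.88 ± 0.505 CPM (SD, n = 3). The groups overlapped for all 4 of these genes, and at such levels a change of the size of their standard errors could not be detected. Of 14 listed receptor genes in the table, 2 rose, Ccrl2 and C3ar1, and 1 fell, Cxcr4. These shares are 14.3% and 7.14%, against 9.03% and 8.35% of all genes tested. Ccrl2 (ENSMUSG00000043953, chr9:111054486-111057519), which encodes a receptor that binds chemerin without signalling, rose 3.65-fold, from 24.99, 23.1 and 17.8 to 81.5, 84.4 and 75.4 CPM (log2 fold change 1.87, SE 0.0978, adjusted p = 4.12e-13). Cxcr4 (ENSMUSG00000045382, chr1:128588199-128592293), the receptor of CXCL12 that holds cells in the marrow, fell by 32.7%, from 773, 789.7 and 799.5 to 533, 548 and 509.6 CPM (log2 fold change -0.57, SE 0.0372, adjusted p = 2.75e-11). C3ar1, a complement receptor, differed by 0.12 on the log2 scale, and its call was lost in 5 of the 6 fits that left out 1 library, all but the one without CCL26 replicate 3.

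The steepest decreases concerned genes of signalling, glycosylation and transport. Dedd2 (ENSMUSG00000054499, chr7:25199915-25220615), a death effector domain protein of the nucleus, fell 2.24-fold, from 84.1, 76.0 and 70.7 to 31.7, 32.5 and 38.8 CPM (log2 fold change -1.17, SE 0.0875, adjusted p = 3.90e-10). Gcnt1, a glycosyltransferase that builds branched O-glycans, fell from 82.0, 82.3 and 80.6 to 44.4, 47.5 and 39.9 CPM (log2 fold change -0.89, SE 0.0752, adjusted p = 2.79e-09). Slc5a3, the myo-inositol importer, fell from 26.2, 25.9 and 24.4 to 12.7, 10.8 and 12.8 CPM (log2 fold change -1.08, SE 0.120, adjusted p = 2.93e-07). Crem, which encodes a repressor and activator at cyclic AMP response elements, fell by 49.97%, from 33.8 ± 1.97 to 16.9 ± 1.70 CPM (SD, n = 3). Ciart, a repressor of the circadian clock, fell by 48.7%, and Tnfrsf12a, the receptor of TWEAK, by 47.5% (adjusted p = 2.10e-07, 4.28e-06 and 2.82e-05 for the 3 genes). Smad7, a feedback inhibitor of TGF-beta signalling, was scarcer and more variable, 13.4, 10.3 and 11.3 CPM with BSA and 3.66, 5.53 and 6.85 CPM with CCL26 (log2 fold change -1.14, SE 0.197, adjusted p = 1.63e-04). Dusp6, a phosphatase that switches ERK off, fell from 10.6, 10.4 and 11.4 to 5.47, 5.82 and 6.85 CPM (log2 fold change -0.84, SE 0.167, adjusted p = 7.39e-04). Wfikkn1 had the most negative log2 fold change among the genes named at 5 CPM or more. It encodes an inhibitor of growth factors of the TGF-beta family, and fell from 5.12, 7.17 and 6.41 to 1.90, 1.61 and 2.73 CPM (log2 fold change -1.59, SE 0.255, adjusted p = 6.46e-05).

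Smaller decreases of abundant genes were also called, and most of those named here were chosen for groups without overlap and a small p. Slc38a2 (ENSMUSG00000022462, chr15:96687392-96699730), an importer of glutamine and other neutral amino acids, fell by 34.3%, from 2354, 2374 and 2326 to 1557, 1597 and 1484 CPM (log2 fold change -0.61, SE 0.0301, adjusted p = 1.62e-13). Zfp36l2 (ENSMUSG00000045817, chr17:84183931-84187947), which destabilises mRNAs with AU-rich elements, fell by 36.6%, from 489, 475 and 496 to 302, 303 and 322 CPM (log2 fold change -0.66, SE 0.0415, adjusted p = 1.64e-11). Their groups were separated by many times the spread within each. Slc39a6, a zinc importer, and Slco4a1, an organic anion transporter, fell by 30.9% and 33.3%. Cd300lb, an activating receptor of myeloid cells, fell by 33.8%, Nasp, a histone chaperone, by 33.5%, and Cyb5a, cytochrome b5, by 31.2%, with adjusted p = 1.03e-09, 1.63e-09 and 3.85e-09. Rhob, a GTPase of endosomes and actin, fell from 228, 222 and 219 to 142, 143 and 161 CPM (log2 fold change -0.58, SE 0.0538, adjusted p = 1.40e-08).

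**Figure D3:**
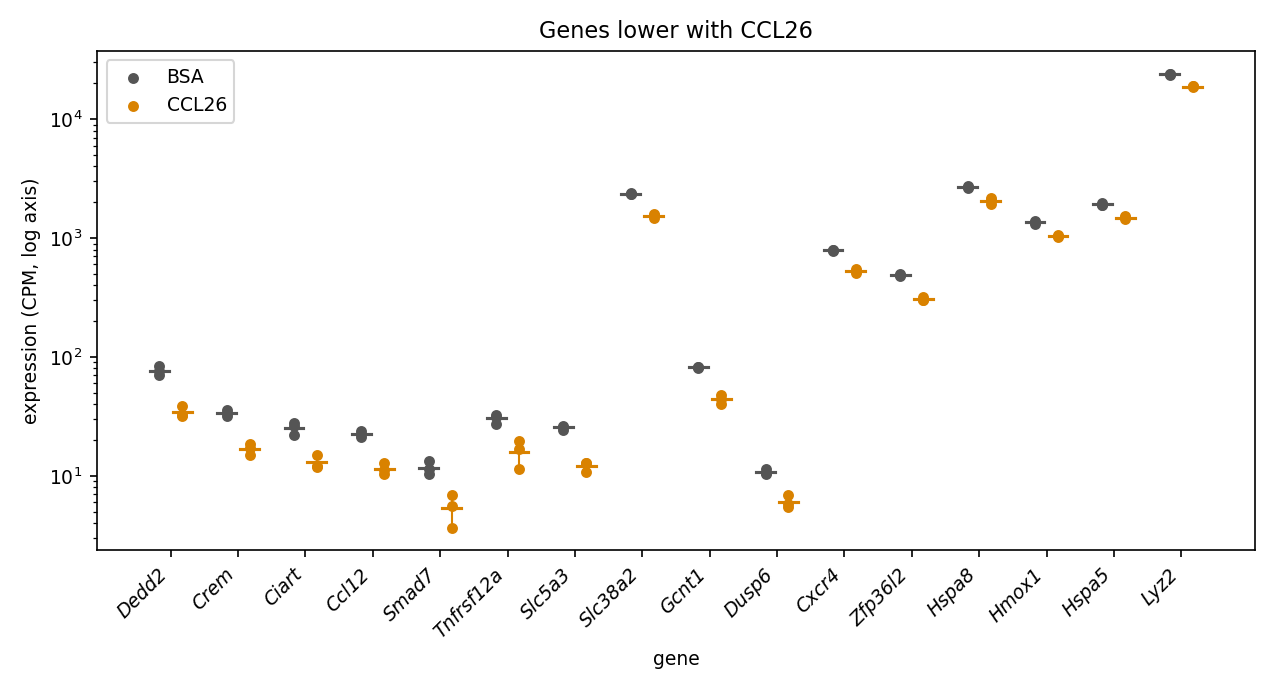
Expression in CPM (log axis) of 16 genes that were lower with CCL26. Points are single libraries, 3 for BSA (grey) and 3 for CCL26 (orange), with the mean and the SD as bars; the genes were chosen to have groups without overlap, and the steps are smaller for the abundant genes at the right, such as Lyz2, than for Dedd2 or Smad7.

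Chaperone genes split by member. Hspa8, the constitutive cytosolic chaperone, fell from 2749, 2700.1 and 2661 to 2071, 2158 and 1916 CPM (log2 fold change -0.40, SE 0.0335, adjusted p = 2.53e-09), and Hsp90aa1 fell by 24.8% (log2 fold change -0.41, adjusted p = 3.00e-08). The stress-inducible Hspa1b rose from 16.5, 17.6 and 18.8 to 48.2, 47.6 and 55.3 CPM and Hspa1a from 12.7, 11.96 and 9.002 to 37.2, 28.4 and 43.6 CPM (log2 fold changes 1.51 and 1.69); these 2 genes are near-identical, so their counts cannot be assigned to either with certainty. Of 23 heat shock genes in the table, 2 (8.7%) rose and 7 (30.4%) fell, against 9.03% and 8.35% of all genes tested. In the endoplasmic reticulum, Hspa5, which encodes the chaperone BiP, fell by 22.6%, from 1982, 1898 and 1887 to 1506, 1522 and 1436 CPM, and Calr, calreticulin, fell by 21.7% (adjusted p = 2.79e-09 and 8.91e-09). Hsp90b1, chosen after its values were seen, fell by 19.2%. Ern1, the sensor IRE1 of unfolded protein, rose from 93.4 ± 4.30 to 131 ± 2.31 CPM (SD, n = 3; log2 fold change 0.49, adjusted p = 7.98e-07). The list of unfolded protein and amino acid stress genes, which mixes chaperones with transporters and synthetic enzymes, had 9 of 40 higher and 13 lower, with a median of -0.03, and 5 higher without BSA replicate 2.

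Antioxidant and iron genes were lower in part. Of 38 listed NRF2 and antioxidant genes, 20 fell and 4 rose (Srxn1, Sod2, Sqstm1 and Slc7a11), with a median of -0.13; 12 fell without BSA replicate 1, and 11 with the abundance trend described below removed. Hmox1, heme oxygenase, fell from 1314, 1352 and 1394 to 1052, 1036 and 1029 CPM (log2 fold change -0.38, SE 0.0321, adjusted p = 2.78e-09). Osgin1, a growth inhibitor induced by oxidative stress, fell by 32.1% and Gpx1, a peroxide-reducing enzyme, by 22.9% (log2 fold change -0.56, adjusted p = 9.15e-07, and log2 fold change -0.38, adjusted p = 1.21e-06). Of 18 iron genes, 8 fell and 1, the importer Slc11a2, rose. Slc40a1, which encodes the iron exporter ferroportin, fell from 118, 109.7 and 110.4 to 79.8, 74.997 and 71.4 CPM (log2 fold change -0.58, SE 0.0639, adjusted p = 2.79e-07). Tfrc, the transferrin receptor, fell by 17.9% and Ftl1, ferritin light chain, by 24.9%.

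Some glycolytic genes fell, by small amounts. Of 45 glycolysis and hypoxia genes, 21 fell and 1, the transporter Slc2a6, rose (median -0.18). Pkm, pyruvate kinase, fell from 2908, 2978 and 2996 to 2392, 2351 and 2608 CPM (log2 fold change -0.27, SE 0.0319, adjusted p = 6.91e-07), and Eno1, enolase, fell by 16.2%. None of the members passed a test against a 1.2-fold change (edgeR glmTreat). Gapdh, often taken as a constant reference, fell by 12.2% (log2 fold change -0.19, adjusted p = 2.06e-05), and that call was lost once the trend with abundance described below was removed (log2 fold change -0.02).

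Some genes for uptake and degradation fell as well. Of 58 lysosomal genes 23 fell and 3 rose (median -0.10), and of 38 scavenger, Fc receptor and complement genes 17 fell and 2, C3 and Lrp1, rose (median -0.18). With the abundance trend removed 9 lysosomal and 13 scavenger, Fc and complement genes fell, and against a 1.2-fold change 2 and none. Lyz2 (ENSMUSG00000069516, chr10:117277331-117282321), lysozyme of macrophages and the gene with the most counts, fell by 21.7%, from 23615, 24018 and 24185 to 18860.0, 18857 and 18492 CPM (log2 fold change -0.35, SE 0.0161, adjusted p = 2.89e-14). Ctsl and Ctsd, which encode the lysosomal proteases cathepsin L and D, fell by 21.7% and 18.9%. Ctsb fell by 12.5%, with 10708, 10634 and 10650.0 CPM against 9344, 9288 and 9356 CPM, but its sign turned to 0.048 on the log2 scale (adjusted p = 0.0841) once the abundance trend was removed. Mrc1, the mannose receptor, fell from 999, 1024 and 992 to 850.4, 831 and 782 CPM and Msr1, a scavenger receptor, by 19.2% (log2 fold change -0.29, SE 0.0357, adjusted p = 1.43e-06 for Mrc1). Cd36, which takes up oxidised lipoprotein, fell by 18.1% and Fcrls, an Fc receptor-like protein, by 17.1%. Of the 16 macrophage markers, 8 fell, Lyz2, Msr1, Mrc1, Itgam, Fcgr1, Cd68, Adgre1 and Cd14, and 1, Cebpb, rose; their summed level was 32600.0 to 33170.0 CPM with BSA and 26780.0 to 27120.0 CPM with CCL26, most of it Lyz2.

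Many ribosomal protein genes and some mitochondrial ones fell by similarly small amounts. Among the 88 genes for ribosomal proteins 55 fell and none rose (median -0.18), and none passed the test against a 1.2-fold change. Rps12, of the small subunit, was at 521, 539.6 and 553 CPM with BSA and 454, 445 and 434 CPM with CCL26 (log2 fold change -0.28, SE 0.0389, adjusted p = 1.18e-05). Rpl7, of the large subunit, fell by 16.0%. Ribosomal protein genes have many processed copies in the genome, so the sharing of their reads is uncertain. Of 15 mitochondrially encoded genes, 9 fell and none rose (median -0.23). The 2 mitochondrial rRNAs fell most among them: mt-Rnr2 from 489.7, 506 and 503 to 313, 336 and 286 CPM and mt-Rnr1 from 357, 373 and 365 to 244, 245 and 218 CPM (log2 fold change -0.68, adjusted p = 1.15e-10, and log2 fold change -0.63, adjusted p = 4.42e-10). Of 79 nuclear genes of oxidative phosphorylation, 18 fell and none rose (median -0.12), and without CCL26 replicate 3 the number lower was 29. At an unadjusted p under 0.05 in edgeR, 1 ribosomal protein gene, 2 nuclear oxidative phosphorylation genes and no mitochondrially encoded gene were higher, and by DESeq2 and limma-voom none was called higher in any of the 3 lists.

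Small decreases were most frequent among abundant genes, and they moved with the level itself. Among the 1699 genes of the most abundant eighth, from 134 CPM upward, 584 (34.4%) fell and 226 (13.3%) rose, with a median of -0.07. The eighth from 8.21 to 18.2 CPM had a median of 0.07, with 2.77% lower and 10.7% higher. The 100 most abundant genes took from 22.8% to 22.9% of the counts in the BSA libraries and from 20.8% to 21.0% in the CCL26 libraries, with no overlap between the groups. Read against 34.4%, the share of lower genes in that eighth was 34.1% for actin and migration genes (15 of 44), 53.7% for lysosomal genes (22 of 41), 60% for antioxidant genes (15 of 25), 62.5% for glycolytic genes (10 of 16), 71.6% for ribosomal protein genes (48 of 67), 75% for scavenger, Fc and complement genes (15 of 20) and 100% for mitochondrially encoded genes (8 of 8). When a smooth trend with abundance was taken out of each library, a setting chosen after seeing the data, 1112 genes were higher and 934 lower, and 830 of the 1135 lower genes (73.1%) were still called lower. The list counts then were 27 lower for ribosomal protein genes, 5 for mitochondrially encoded, 9 for lysosomal, 13 for scavenger, Fc and complement, 15 for glycolytic and 11 for antioxidant genes. Actin and migration genes went from 8 higher and 17 lower to 16 higher and 7 lower, with 26 lower when CCL26 replicate 3 was left out; their median turned with the trend removed from -0.06 to 0.02, as did that of the unfolded protein and amino acid stress genes, from -0.03 to 0.04 with 13 higher and 9 lower. NF-kB genes had 27 higher and none lower in that setting.

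Exon length moved with the direction too. Among genes of at least 5 CPM, the higher genes had a median exon length of 5960 bases and the lower genes 3891, against 4668 for all. In the shortest eighth, 16.7% were lower and 5.14% higher, and in the longest, 7.37% were lower and 22.7% higher. The trend was present in CCL26 replicates 1 and 2 and not in replicate 3: the median deviation of the shortest eighth from the mean of all 6 libraries was -0.06 on the log2 scale in replicates 1 and 2 and 0.03 in replicate 3. With the length trend removed from each library, also a setting chosen after seeing the data, 1047 genes were higher and 1300 lower, 43 ribosomal protein genes fell and 25 NF-kB genes rose. Whether RNA quality or library preparation had a part in either trend was not tested.

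**Figure D4:**
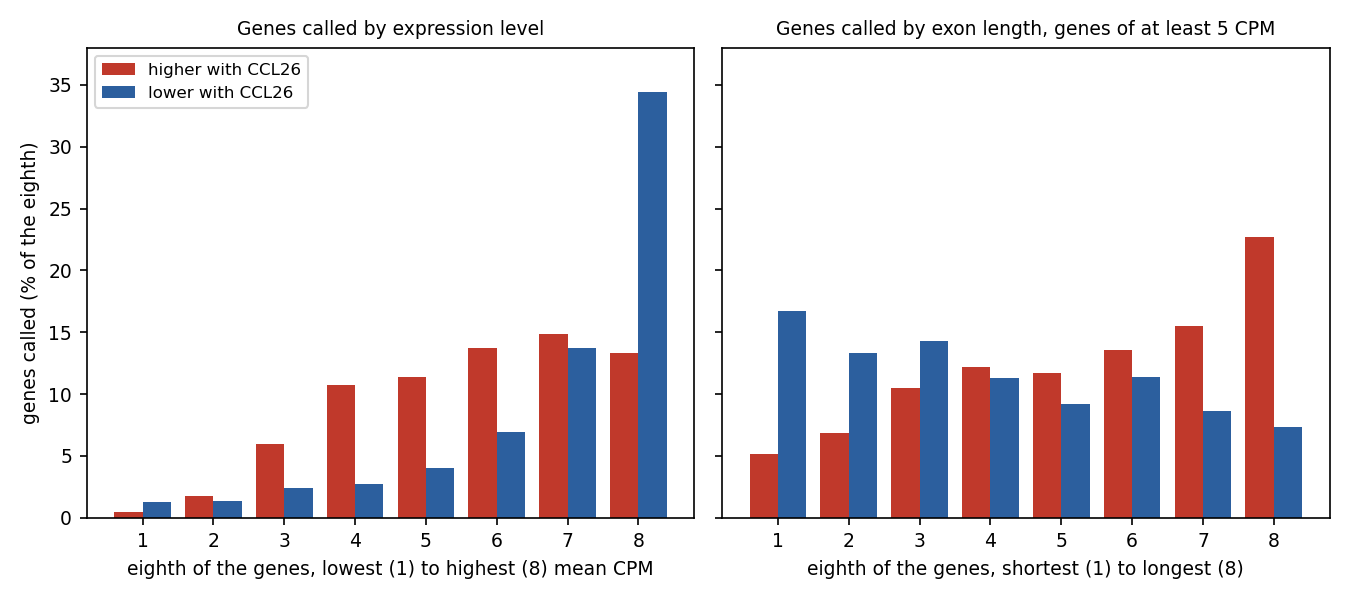
Share of genes called higher (red) or lower (blue) with CCL26, in percent of the genes in each eighth, by mean CPM over all 13593 genes (left) and by exon length over genes of at least 5 CPM (right). Lower genes reach 34.4% in the most abundant eighth, and from the shortest to the longest eighth the higher genes go from 5.14% to 22.7%.

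**Figure D5:**
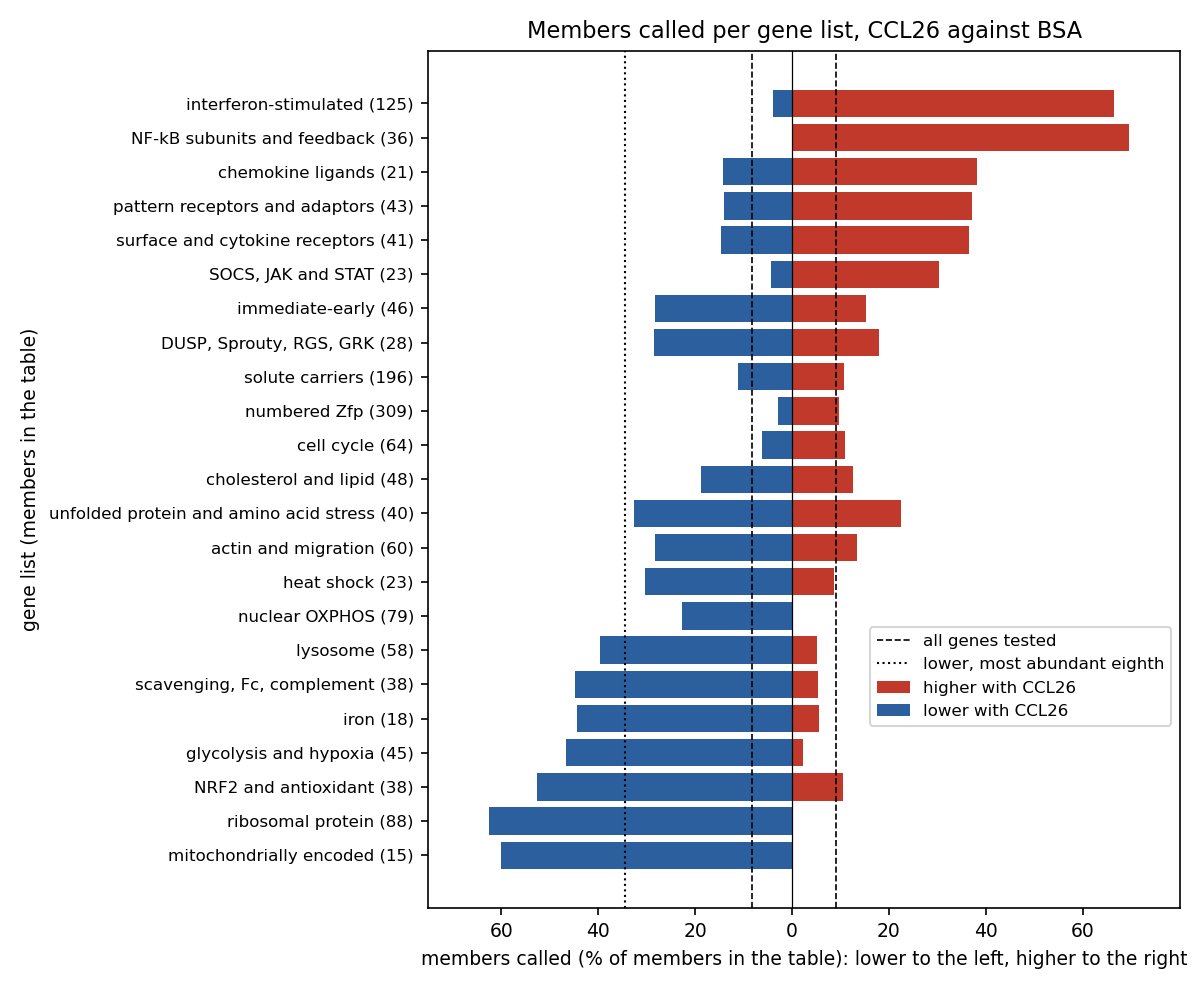
Members of 23 gene lists that rose (red, to the right) or fell (blue, to the left) with CCL26, in percent of the members in the table, whose number follows each name. Dashed lines mark the shares over all genes (9.03% and 8.35%) and the dotted line the share lower in the most abundant eighth (34.4%); NF-kB and interferon genes lie far to the right, and ribosomal protein and mitochondrially encoded genes far to the left.

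Early response genes did not move one way. Of 46 listed immediate-early genes, 7 (15.2%) rose and 13 (28.3%) fell, with a median of -0.10, against 9.03% and 8.35% of all genes tested. Egr3, a zinc finger factor of the early response, rose from 0.837, 1.14 and 0.115 to 4.11, 7.14 and 5.35 CPM, the largest fold among genes of at least 5 CPM outside the interferon list that were named by rule (log2 fold change 2.95, SE 0.400, adjusted p = 6.52e-06). Maff, a small Maf factor, rose from 15.0, 17.5 and 15.9 to 37.8, 36.0 and 40.5 CPM (log2 fold change 1.24, SE 0.105, adjusted p = 2.79e-09), and Myc, a driver of growth, from 27.3 ± 2.35 to 50.4 ± 4.42 CPM (SD, n = 3; log2 fold change 0.89, adjusted p = 1.62e-07). Zc3h12c, an RNA-binding protein related to Regnase-1, rose by 65.6%. The 13 that fell were Nr4a2, Fosl2, Zfp36l2, Ier2, Fos, Csrnp1, Klf9, Ier3, Klf11, Klf3, Jun, Mafk and Ier5, so both AP-1 partners Fos and Jun were lower at 4 h.

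Regulators of MAP kinases and G proteins were also divided, with 5 of 28 higher (17.9%) and 8 lower (28.6%), against 9.03% and 8.35% of all genes tested. The number higher was 1 to 4 with any 1 library left out. The number lower was 5 without BSA replicate 3 or CCL26 replicate 1. Spred1, an inhibitor of Ras signalling, rose from 61.3 ± 4.18 to 98.2 ± 3.31 CPM (SD, n = 3; log2 fold change 0.68, adjusted p = 5.86e-08). Rgs2, which speeds the shut-off of G proteins, fell by 31.1% from 65.1, 71.4 and 70.1 to 48.9, 49.9 and 43.5 CPM (log2 fold change -0.54, SE 0.0768, adjusted p = 1.39e-05). Among 30 cyclic AMP pathway genes, the transcription factor gene Creb5 and the phosphodiesterase gene Pde4b rose, from 14.5 ± 1.54 to 28.6 ± 1.51 CPM and from 18.5 ± 2.25 to 34.4 ± 1.68 CPM (adjusted p = 7.70e-07 and 1.03e-06). The share higher, 6.67%, was below the 9.03% of all genes tested. Crem, Sik1, Thbs1, Sik3 and Prkar1a fell, 5 genes or 16.7%, against 8.35% of all genes. Without BSA replicate 2 or 3 the number lower was 3.

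The level of each gene with CX3CL1, at the same dose and time, was set against that with CCL26 in a fit of 8 libraries that left out CX3CL1 replicate 1. That library stands apart, with 1193 genes without a count against 80 to 170 in the others. Between CCL26 and CX3CL1, 713 genes (5.25%) were higher and 607 (4.47%) lower with CCL26. With only 1 CX3CL1 library left, whose spread is then taken from the other groups, the counts were 380 and 241 without replicate 2 and 411 and 260 without replicate 3. This comparison uses the same CCL26 libraries as the one with BSA, so the 2 sets of values are not independent. Acod1 was at 109 and 106 CPM in the 2 CX3CL1 libraries, at the BSA level and far below CCL26 (log2 difference 2.34, SE 0.0668, adjusted p = 2.08e-18). Clec4e was at 164 and 147 CPM there (log2 difference 1.19, SE 0.0578, adjusted p = 1.20e-13), and Csf1 at 24.7 and 23.2 CPM (log2 difference 1.26, SE 0.119, adjusted p = 3.09e-08). Some decreases were also present against CX3CL1: Gcnt1 was at 77.1 and 78.9 CPM (log2 difference -0.83, SE 0.0783, adjusted p = 3.16e-08) and Dedd2 at 58.1 and 56.6 CPM (log2 difference -0.74, SE 0.0928, adjusted p = 3.08e-06). Others were not called against it. Odc1 stood at 101 and 97.5 CPM with CX3CL1, close to its level with CCL26 (log2 difference -0.06, SE 0.0599, adjusted p = 0.636). Ciart was at 16.4 and 15.4 CPM (log2 difference -0.29, SE 0.142, adjusted p = 0.245) and Ccl12 at 15.7 and 13.6 CPM (log2 difference -0.35, SE 0.142, adjusted p = 0.137), between their levels with BSA and with CCL26. Ficd, an enzyme that modifies BiP, rose 2.49-fold over BSA and differed by 0.54 from CX3CL1 (adjusted p = 0.3001), which did not pass the test.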

How the data were processed

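Per the labels' protocols, column-purified total RNA was made into libraries (NEBNext Ultra II) and sequenced as read pairs of 150 bp. The authors deposited whole-number counts per gene, not normalized, for 13593 genes; STAR, featureCounts, MultiQC and the builds GRCm38 and mm10 are named in the submitters' processing notes, and the strand setting of the counting was not given in the sources used here. Columns were matched to libraries by the code in the labels. All genes in the table were tested in the 6 libraries with edgeR 4.0.16 (TMM scaling, quasi-likelihood F test, R 4.3.3), adjusted by Benjamini-Hochberg with a threshold of 0.05. SE is the absolute log2 fold change over the square root of F. CPM values use TMM-scaled library sizes. DESeq2 1.42.0, limma-voom (limma 3.58.1), other scalings, filters and samples were alternatives. The lowest second-highest value of any gene in the table was 0.431 CPM, so the table had been filtered before deposit.

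On simulated data for this comparison (13593 genes), the test recovered 28% of 50 genes with a 1.2-fold change, 88% of 50 at 1.5-fold and 100% of 50 at 2-fold, with 5 false calls. The changed genes were drawn from those averaging at least 5 CPM, so the recovery says nothing of scarcer genes. No trend with abundance or exon length was simulated, so the false calls do not measure those in the real comparison. Replicates differed by more than sampling noise (chi-square per degree of freedom 3.91 to 8.65, highest for the pairs with CCL26 replicate 3), so none was merged. The table lacked 1343 symbols, of which 1333 came from GENCODE M21 by gene identifier; positions of genes come from the same annotation, on GRCm38.

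Members, gene lists and tests were chosen with earlier results of these data known. Genes with a proper symbol were named by rule. Among called genes with groups not overlapping, the rule took the 20 largest changes each way at 5 CPM or more. From the same genes came the 12 modest decreases and 10 modest increases with the smallest p at 50 CPM or more. The 8 smallest p each way and the 4 largest interferon genes came from them too. The interferon list was left out of the increases. Up to 4 members per list, those with the smallest p, and 4 receptors were taken whether called or not. Adgre1, Csf1r, Elane and Mpo, shown as markers, and the genes so described in the text were chosen after their values were seen; further members are named only where a list's calls are enumerated. Some genes that the rule selects are not reported here.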

Additional observations from a re-analysis of the deposited data

How the results depend on the processing

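The counts of 1228 higher and 1135 lower genes were within 1.5 times of these values with DESeq2 (1189 and 1203), limma-voom (1187 and 1170), filterByExpr (1172 and 1245), a filter of 5 CPM in 3 libraries (1182 and 1294) and 1 library left out (907 to 1324 higher, 806 to 1412 lower, the highest without CCL26 replicate 3). They moved further in 3 settings: 310 and 114 in a test against a 1.2-fold change, 748 and 707 at an adjusted p under 0.01, and 50 and 6 with all 9 libraries. CCL26 against CX3CL1 gave 713 higher and 607 lower, 52 and 2 with all 9 libraries, and 380 to 865 higher and 241 to 841 lower with 1 library left out. The log2 fold change of Ctsb reversed to 0.048 without the abundance trend, and that of Ccr3 ranged from -0.49 to 0.38 with 1 library left out, above 0 without BSA replicate 1 (0.38) or CCL26 replicate 1 (0.095). That of Ccr1 ranged from -0.090 (without CCL26 replicate 1) to 0.16 and was -0.019 without the abundance trend, and that of Cx3cr1 ranged from -0.076 to 0.21, below 0 without BSA replicate 1 or CCL26 replicate 3 (-0.055); the cause was not tested. With GC content as the trend removed per library, chosen after seeing the data like those for abundance and exon length, 1279 genes were higher and 1475 lower. With the replicate number as a block, 1260 were higher and 1203 lower. Deviations from the group means correlated at -0.02, 0.04 and 0.01 between same-numbered libraries, and from -0.05 to 0.04 between differently numbered ones. The sources used here do not say what the numbers stand for, and these values do not settle whether they mark a pairing. Of 190 named called genes, 180 to 190 kept their call in the settings other than all 9 libraries (31) and the 1.2-fold test (117). The 180 belongs to the filter of 5 CPM, where the rest were not tested. Most of these genes were chosen for a small p or a large change in these same data, which favours keeping the call. Over all calls, 70.1% to 88.2% of the higher genes kept theirs with 1 library left out, and 70% to 93.7% of the lower genes. Low levels limited the calls, with 0.471% of genes higher and 1.24% lower in the least abundant eighth, under 0.714 CPM.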

Other observations

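Of 64 cell cycle genes, 7 rose and 4 fell, or 10.9% and 6.25%, near the 9.03% and 8.35% of all genes tested, with a median log2 fold change of 0.01; 3 rose without CCL26 replicate 2, 4 rose without BSA replicate 3, 2 fell without BSA replicate 2 and 9 fell without CCL26 replicate 3. Cdk6, a kinase of the G1 phase, rose by 47.7%, from 72.7, 74.95 and 65.8 to 104, 114 and 96.9 CPM (log2 fold change 0.56, SE 0.0711, adjusted p = 2.23e-06), whereas Cdkn1b, the inhibitor p27, fell by 20.3% (log2 fold change -0.33, adjusted p = 6.95e-04) and Pcna, the sliding clamp of replication, by 15.5%. Of 48 cholesterol and lipid genes, 6 (12.5%) rose, among them Ch25h and Abca1, and 9 (18.75%) fell, among them Cd36, Lipa and Plin2. These shares stand against the same 9.03% and 8.35%. Lipa, the acid lipase of lysosomes, fell from 1693, 1725 and 1719 to 1482, 1478 and 1369 CPM (log2 fold change -0.25, SE 0.0324, adjusted p = 4.01e-06).

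Genes of antigen presentation by MHC class I rose in part, with 4 of 21 higher and 1 lower. Of the higher ones, Nlrc5, Tap1 and Tapbp also belong to the interferon list and were counted there, and H2-Q4 does not. The summed level of the list did not rise, at 5465 to 5686 CPM with BSA and 5407 to 5479 CPM with CCL26. Tap1, a subunit of the peptide transporter, was at 43.6, 49.7 and 44.0 CPM with BSA and 62.7, 61.7 and 62.4 CPM with CCL26 (log2 fold change 0.44, SE 0.0770, adjusted p = 1.64e-04), and Nlrc5, their transcriptional activator, was higher by 53.6%. B2m, the light chain, fell by 12.1%, a call that was lost with the abundance trend removed (log2 fold change -0.03). For class II, 1 of 12 genes rose, Rfx5 (log2 fold change 1.45, adjusted p = 7.39e-04), a share of 8.33%, near the 9.03% of all genes tested. Of 196 solute carriers 21 (10.7%) rose and 22 (11.2%) fell, near the 9.03% and 8.35% of all genes tested, with 13 higher without BSA replicate 3. Slc31a2, a copper transporter, went from 150.3, 146 and 156 to 231, 232 and 234 CPM (log2 fold change 0.63, SE 0.0485, adjusted p = 6.72e-10). Of 309 numbered Zfp genes 30 (9.71%) rose, close to the share of all genes, and 9 (2.91%) fell, with a median of 0.10; 19 rose without BSA replicate 2, 16 without CCL26 replicate 1 and 17 without CCL26 replicate 2. Of 39 TGF-beta, SMAD, Notch and Wnt genes, 5 (12.8%) rose and 6 (15.4%) fell, with a median of -0.05. Those that rose were Skil, Notch1, Notch2, Rbpj and Smad5, and those that fell were Hes1, Smad7, Jag1, Tgfbr1, Smad2 and Ski. Notch2 and Rbpj, a receptor and the transcription factor of Notch signalling, rose by 28.1% and 25.2%, and Tgfbr1, a TGF-beta receptor, fell by 21.4% (adjusted p = 1.13e-05, 9.07e-06 and 3.92e-06). Ctdp1, which dephosphorylates RNA polymerase II, fell from 134, 142 and 139.9 to 85.5, 94.4 and 84.5 CPM (log2 fold change -0.65, SE 0.0600, adjusted p = 1.35e-08).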
